A study of Mus musculus with 3 samples.

Results

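The genes described here encode the subunits of the proteasome, its activators and its assembly factors. They were taken by symbol, as every gene whose name runs from Psma to Psmg with a digit after it and which has at least 1 protein-coding transcript. The rule gave 50 genes of the 55536 annotated in mouse, of which 22028 are protein-coding. It used no measured value. It brought in 2 genes outside the known subunits and their factors: Psmc3ip, which is named for binding the ATPase Psmc3 and acts in meiotic recombination, and Psme2b, a copy of Psme2.

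The RNA came from bone-marrow-derived macrophages, primary phagocytes grown from marrow precursors, of the inbred strain C57BL/6J. All 3 libraries form 1 group, with no genetic change and no untreated control. The cells saw 100 ng/ml lipid A for 12 h, then 12 h without it, then 100 ng/ml lipid A again for 480 min. Lipid A is the part of bacterial lipopolysaccharide that Toll-like receptor 4 senses, while the fields for the treatment give lipoprotein A instead. Each library was made from 1 µg of RNA and selected for polyadenylated transcripts. Sex and age were not collected, and the 3 libraries carry biological replicate numbers but point to the same donor record, so the spread between them may be technical.

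The proteasome degrades proteins tagged with ubiquitin. Its barrel-shaped core has outer rings of alpha subunits and inner rings of beta subunits, and only 3 kinds of beta subunit cut peptide bonds. Most cells use Psmb5, Psmb6 and Psmb7 for this. Interferon-treated cells and cells of the immune system also make Psmb8, Psmb9 and Psmb10, which take the places of Psmb5, Psmb6 and Psmb7 in newly built cores and form the immunoproteasome, known for supplying peptides to MHC class I molecules. Caps on the core open its gate: a regulatory particle with ATPases, which unfolds tagged proteins, or an activator made of Psme1 and Psme2 in the cytoplasm or of Psme3 in the nucleus. With 1 group the data cannot show induction, and they give the balance between these genes within each library.

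The reads of each library were quantified in 2 ways, first from alignments to transcripts and second from the reads directly, and values are from the first unless the second is named. Expected counts totalled 24596382 in replicate 1, 54016971 in replicate 2 and 43127749 in replicate 3. Replicate 2 stood apart from the other libraries, with 6.86% of its counts on mitochondrial messenger RNAs against 1.06% and 1.13%, so results that rest on it are given with and without it. The cell type label was checked against markers. All 7 macrophage markers reached 10 TPM in every library, with a summed level of 15021, 13381 and 16223 TPM in replicates 1, 2 and 3. TPM is a count per transcript length, scaled so that every library has the same total, and it can therefore be compared between genes. None of 7 lymphocyte markers reached 1 TPM, their sum was 0 to 0.65 TPM, and Cd79a and Nkg7 were listed at 0 in every library. Of 5 dendritic cell markers only the migration receptor Ccr7 did (mean 2.45 TPM), with sums of 2.29 to 3.98 TPM and Cd209a at 0. In bulk RNA fewer cells of a type and less RNA per cell cannot be told apart.

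The start-site windows of 5 genes are shown: both members of the Psmb8 and Psmb5 pair and of the Psmb9 and Psmb6 pair, and Psme1. Psmb10, Psme2 and Psme3 are compared below as well, but their windows are not printed. RefSeq windows (GRCm38.p6, 250 bases before to 50 after a start site) matched 42 of the 50 genes, with 45 windows, and no window matched Psma8, Psmb1, Psmb2, Psmb7, Psmc3, Psmd3, Psmd7 or Psmg2. Each stretch is printed 5′ to 3′ on the strand of its gene and stops 30 bases into the transcript. The stretches of Psmb8, Psmb9 and Psme1 lie inside the bounds of the annotated genes, so their RefSeq start sites are not the outermost starts of the genes quantified. Capitals mark a motif match, except in Psmb9, where they mark the 225 bases between its start site and that of Tap1.
Psmb8, chr17:34197945-34198224, plus strand: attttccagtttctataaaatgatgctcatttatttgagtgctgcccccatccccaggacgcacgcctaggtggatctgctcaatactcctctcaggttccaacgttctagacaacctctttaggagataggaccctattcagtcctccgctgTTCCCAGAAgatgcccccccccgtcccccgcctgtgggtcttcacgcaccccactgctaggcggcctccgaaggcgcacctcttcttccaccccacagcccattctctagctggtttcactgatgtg
Psmb5, chr14:54617966-54618245, minus strand: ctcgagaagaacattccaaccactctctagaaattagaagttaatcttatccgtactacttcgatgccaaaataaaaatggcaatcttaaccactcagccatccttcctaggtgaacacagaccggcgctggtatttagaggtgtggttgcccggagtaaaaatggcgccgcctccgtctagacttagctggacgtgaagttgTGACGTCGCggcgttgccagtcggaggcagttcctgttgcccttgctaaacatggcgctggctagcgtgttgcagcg
Psmb9, chr17:34187301-34187580, minus strand: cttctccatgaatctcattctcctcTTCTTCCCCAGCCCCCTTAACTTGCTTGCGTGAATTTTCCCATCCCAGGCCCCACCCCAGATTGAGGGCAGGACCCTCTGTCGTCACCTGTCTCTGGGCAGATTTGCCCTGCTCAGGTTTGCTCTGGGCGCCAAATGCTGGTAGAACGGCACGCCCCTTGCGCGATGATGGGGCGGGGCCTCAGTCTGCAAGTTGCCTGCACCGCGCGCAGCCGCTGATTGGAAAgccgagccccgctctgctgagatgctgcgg
Psmb6, chr11:70525107-70525386, plus strand: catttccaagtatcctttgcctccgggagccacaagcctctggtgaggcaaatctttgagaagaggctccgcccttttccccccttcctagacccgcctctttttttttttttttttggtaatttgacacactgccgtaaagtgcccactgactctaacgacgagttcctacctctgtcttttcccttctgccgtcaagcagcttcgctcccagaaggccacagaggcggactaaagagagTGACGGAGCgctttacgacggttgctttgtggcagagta
Psme1, chr14:55578244-55578523, plus strand: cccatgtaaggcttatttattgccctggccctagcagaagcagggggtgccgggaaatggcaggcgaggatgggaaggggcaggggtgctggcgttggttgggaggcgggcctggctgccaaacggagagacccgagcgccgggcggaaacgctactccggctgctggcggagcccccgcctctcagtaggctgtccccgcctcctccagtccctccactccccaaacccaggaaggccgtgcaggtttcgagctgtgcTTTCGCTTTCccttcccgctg

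Psmb9 and Tap1, which encodes a chain of the peptide transporter of MHC class I loading, are read in opposite directions from start sites 226 bases apart, so their windows share 275 bases (chr17:34187306-34187580). Psmb8 lies on the other side of Tap1 in the same locus. In the printed stretches Psmb8 holds TTCCCAGAA, a match to TTCNNNGAA, the gamma-activated site of interferon signalling, 97 to 89 bases before its start site. Psme1 holds TTTCGCTTTC on its plus strand, a match on the other strand to GAAANNGAAA, the core of the interferon-stimulated response element, from 9 to 18 bases after the start site, which counts as 0. Psmb5 holds TGACGTCGC 47 to 39 bases before its start site and Psmb6 holds TGACGGAGC 9 to 1 bases before its own, both matches to TGACNNNGC, the core of the antioxidant response element bound by the NRF factors. None of these 4 windows held a second match, so no motifs overlapped in them.

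These motifs were searched on both strands of all 32851 windows of this length. The interferon element core was in 3.44% of all windows and in 5 of 45 proteasome windows (Psmb3, Psmd4, Psmd9, Psme1 and Psmg4). The gamma-activated site was in 8.3% of all windows and in 3 of 45 (Psmb8, Psmd2 and Psmg1). The antioxidant element core was in 12.4% of all windows and in 6 of 45 (Psmb5, Psmb6, Psmc6, Psmd12, Psmd9 and Psme4). The NF-kB consensus was in 4.51% of all windows and in 1 of 45 (Psmd12). None of these motifs was in the windows of Psmb9, Psmb10, Psme2 or Psme3. A match says only that these letters are present.

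Proteasome genes were abundant messages. At least 10 TPM in every library was reached by 42 of the 50 genes (84%), against 5298 of the 10350 detected protein-coding genes (51.2%), those with 1 TPM or more in any library. At least 100 TPM in every library was reached by 19 (38%), against 890 detected genes (8.6%). The median gene of the set stood at 114.3 TPM against 15.1 TPM over all detected genes. On the log2(TPM + 1) scale the medians differed by 2.84 ± 0.22 (SD, n = 3), and the difference was 2.74, 2.44 and 2.87 in replicates 1, 2 and 3. Only Psmb11 and Psmc3ip did not reach 1 TPM in every library, and the levels of all 50 genes are plotted by role.

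**Figure D1:**
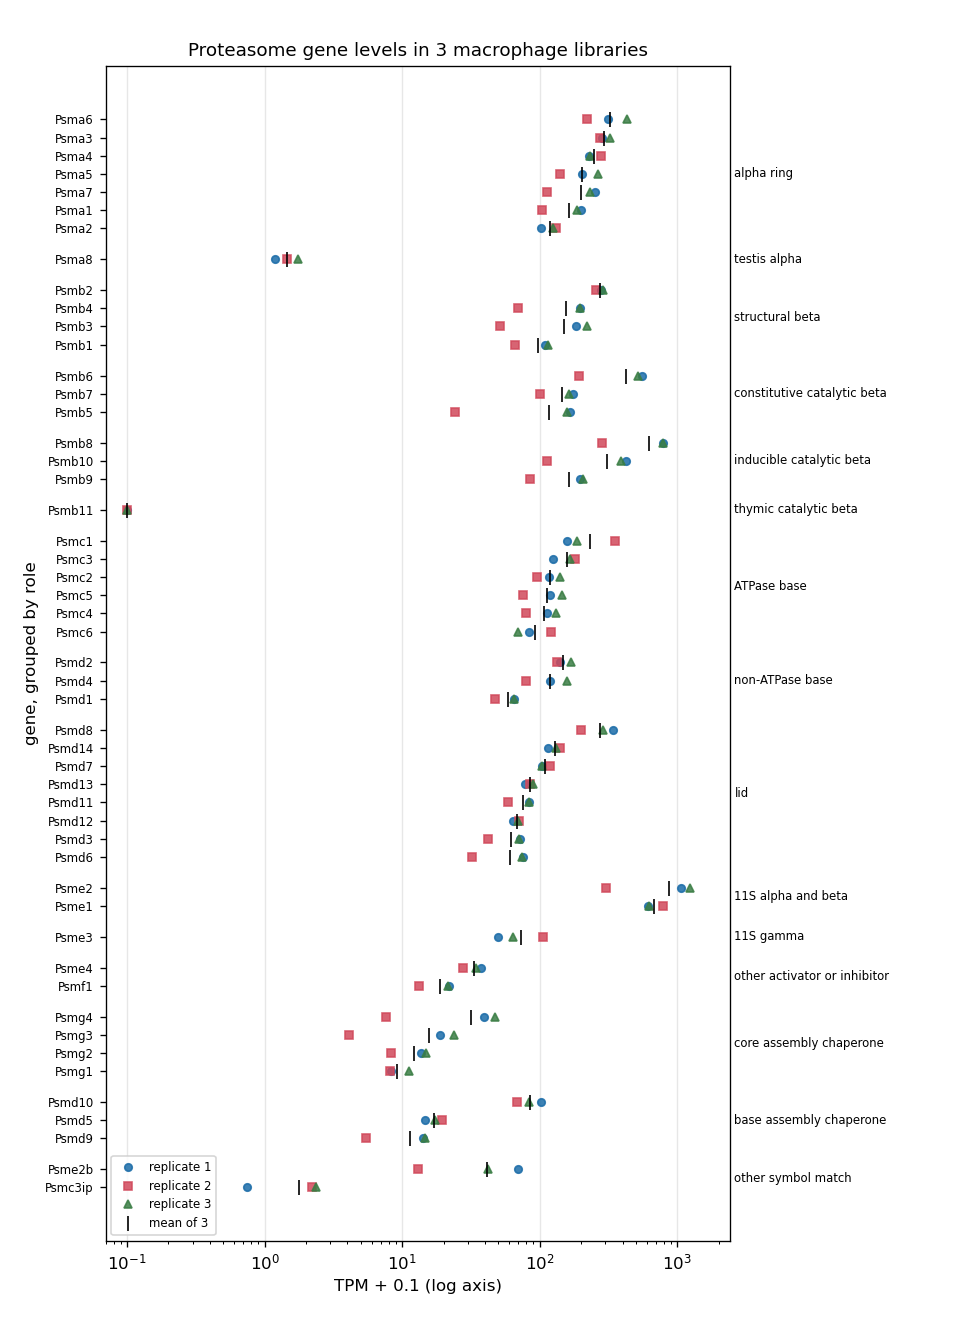
TPM + 0.1 of the 50 genes (horizontal log axis), grouped by role, with 1 point per library and a vertical bar at the mean of the 3 libraries. Most points of replicate 2 lie to the left of those of replicates 1 and 3, and Psmb11 lies at the left edge because it was listed at 0 TPM in every library.

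Of the 3 inducible catalytic subunits, Psmb8 lay well above its constitutive partner, Psmb9 lay below its partner, and Psmb10 lay above its partner in replicates 1 and 3. Psmb8 (ENSMUSG00000024338.15, chr17:34197721-34201454), the inducible subunit for the chymotrypsin-like site, stood at 783, 285 and 788 TPM in replicates 1, 2 and 3, a mean of 619 ± 289 (SD, n = 3). Its constitutive counterpart Psmb5 (ENSMUSG00000022193.7, chr14:54614119-54618022) stood at 166, 24.0 and 158 TPM, a mean of 116 ± 79.8. Psmb8 lay above Psmb5 in every library, and its lowest library lay above the highest of Psmb5. The ratio within a library was 4.71, 11.9 and 4.98, and its log2 averaged 2.71 ± 0.74.

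A pair was called separated when its log2 ratio of TPM + 0.1 had the same sign in all 3 libraries and a mean larger than 3 SD. The Psmb8 and Psmb5 pair met this rule, also without replicate 2, where its mean was 2.28. With only protein-coding transcripts counted, the mean was 2.36 ± 0.86 and the rule was not met. The two-sided exact sign-flip permutation test gave p = 0.25 for each of the 5 pairs compared, which is the smallest p that 3 libraries allow, so none could pass 0.05 and adjustment over the pairs changes nothing.

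Psmb9 (ENSMUSG00000096727.3, chr17:34181987-34187764) and Psmb6 (ENSMUSG00000018286.6, chr11:70525367-70527858) share a place in the core, where Psmb6 provides the caspase-like site, and here the constitutive gene was the higher. Psmb9 stood at 197, 84.4 and 208 TPM, a mean of 163 ± 68.3. Psmb6 stood at 557, 193 and 518 TPM, a mean of 423 ± 200 (SD, n = 3). Both genes were lowest in replicate 2, and Psmb9 lay below Psmb6 in every library. The log2 ratio of Psmb9 over Psmb6 was -1.50, -1.19 and -1.32, a mean of -1.34 ± 0.15, and the pair was separated. The order of this pair was thus opposite to that of Psmb8 and Psmb5.

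Psmb10 (ENSMUSG00000031897.9, chr8:105935735-105938444) and Psmb7 (ENSMUSG00000026750.6, chr2:38588036-38644087) provide the trypsin-like site. Psmb10 stood at 420.4, 113 and 388 TPM, a mean of 307 ± 169. Psmb7 stood at 173, 99.8 and 164 TPM, a mean of 146 ± 40.1. Psmb10 was 2.43-fold and 2.36-fold higher than Psmb7 in replicates 1 and 3, while in replicate 2 the genes lay close, at a ratio of 1.13. The mean log2 ratio of 0.90 ± 0.62 did not meet the rule. Without replicate 2 it was 1.26 and met it, and in the second quantification of the same reads the log2 ratio in replicate 2 was on the other side of 0 (-0.12). With only protein-coding transcripts counted the mean was 0.25 ± 0.93, and in replicate 2 the coding transcript of Psmb10 (56.5 TPM) lay below that of Psmb7 (99.4 TPM).

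Taken as a share of each pair's TPM, Psmb8 made up 82.5%, 92.2% and 83.3% in replicates 1, 2 and 3. Psmb9 made up 26.1%, 30.4% and 28.6%, and 28.4%, 26.6% and 29% in the second quantification. Its share in replicate 2 was thus the highest in the first and the lowest in the second. Psmb10 made up 70.8%, 53.1% and 70.2%. The shares of Psmb8 and Psmb10 thus moved in opposite directions in replicate 2, and the sum of all 3 inducible genes stayed at 61%, 60.4% and 62.2% of the 6 catalytic messages (61.2% ± 0.938, n = 3). Counting only protein-coding transcripts put that sum at 55.5%.

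**Figure D2:**
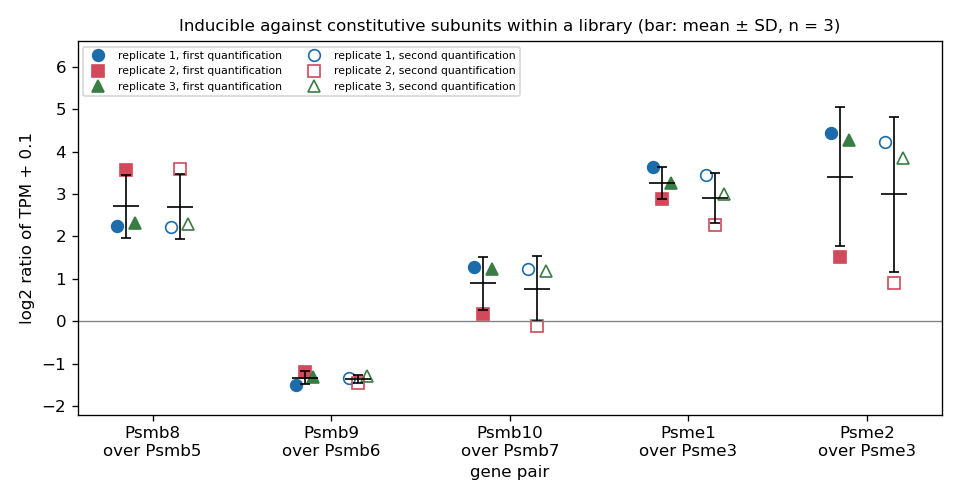
Log2 ratio of TPM + 0.1 within each library (vertical axis) for 5 gene pairs, with filled symbols for the first and open symbols for the second quantification, and bars for the mean ± SD over 3 libraries. The ratio of Psmb9 over Psmb6 lies below 0 in every library, and replicate 2 lies apart from the other libraries in the Psmb8, Psmb10 and Psme2 pairs.

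Both genes of the interferon-responsive activator exceeded that of the nuclear activator in every library. Psme1 (ENSMUSG00000022216.17, chr14:55578123-55581529), its alpha chain, stood at 617, 789.9 and 620.1 TPM, a mean of 676 ± 98.9. Psme2 (ENSMUSG00000079197.10, chr14:55587441-55591113), its beta chain, stood at 1070, 304 and 1237 TPM, a mean of 870.4 ± 498. Psme3 (ENSMUSG00000078652.9, chr11:101316213-101323537), the gamma chain, stood at 49.4, 106 and 64.4 TPM, a mean of 73.4 ± 29.5. In replicate 2 Psme2 was at its lowest while Psme1 and Psme3 were at their highest by gene TPM. For Psme1 this depends on the transcripts included. Its leading coding transcript Psme1-208 stood at 586, 491 and 596 TPM, lowest in replicate 2, and at 353, 546 and 521 TPM in the second quantification. Psme1-210, also coding, stood at 0, 153 and 2.14 TPM. Psme1-209, annotated for nonsense-mediated decay, stood at 2.43, 136 and 2.34 TPM, and at 0.324 TPM in replicate 2 in the second quantification.

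The log2 ratio of Psme1 over Psme3 was 3.64, 2.89 and 3.27, a mean of 3.27 ± 0.37 or 9.62-fold, and the pair was separated. That of Psme2 over Psme3 was 4.43, 1.51 and 4.26, a mean of 3.40 ± 1.64, and did not meet the rule. Without replicate 2 its mean was 4.35 and it did. Psme1 and Psme2 pair in the same ring, and their messages stood in different order between libraries, with Psme2 above Psme1 in replicates 1 and 3 and below it in replicate 2.

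The value of Psme2 has a further limit, since the genome holds a copy of it. Psme2b (chr11:48945354-48946190) has 1 exon where Psme2 has 11. Their coding sequences, 720 bases each in GENCODE M21 transcripts on mm10, are 99.3% identical, with 5 mismatches, and share an identical run of 311 bases. Coding bases 484 to 543 hold 3 of the mismatches, in capitals, and show how few positions tell reads of these genes apart.
Psme2: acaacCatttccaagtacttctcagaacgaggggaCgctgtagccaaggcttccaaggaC
Psme2b: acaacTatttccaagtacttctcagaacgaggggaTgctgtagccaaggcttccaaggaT
Psme2b stood at 69.2, 13.0 and 41.7 TPM in the first quantification and at 55.5, 70.7 and 52.2 TPM in the second, so its lowest library in the first was its highest in the second. How the reads are split between the copies is a model estimate and is uncertain. Summing both genes gave a log2 ratio over Psme3 of 3.47 ± 1.65, close to that of Psme2 alone. Of the other regulators, Psme4, a large nuclear activator, had a mean of 33.1 ± 5.12 TPM and Psmf1, an inhibitor of the core, 18.8 ± 4.88 TPM.

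The 7 alpha subunits, which form the gate of the core, all reached 100 TPM in every library by gene TPM. For Psma3, at 282, 276 and 323 TPM, protein-coding transcripts held only 14.7%, 52.9% and 21% of this. Psma6 was the highest, at 314, 222 and 429.6 TPM (mean 322 ± 104). Psma2 was the lowest by gene TPM, at 102, 131 and 125 TPM (mean 119 ± 15.5). The range of means within the ring was thus under that among the catalytic subunits, where Psmb8 and Psmb5 mark the ends.

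The 4 beta subunits without catalytic activity ranged from Psmb2, at 278, 256 and 287 TPM (mean 274 ± 16.2), to Psmb1, at 109, 66.0 and 115 TPM (mean 96.5 ± 26.6). All 4 were lowest in replicate 2. Among them Psmb3 varied most, at 184, 51.2 and 219 TPM, while Psmb2 was nearly level across the libraries.

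Core subunits of restricted tissues were near or at 0. Psmb11, the catalytic subunit of thymic cortical epithelium, had 0 expected counts in every library, which allows up to 0.0819, 0.033 and 0.0449 TPM (3 counts in each library, counting error only). The second quantification gave it 0.019, 0.043 and 0.076 TPM, above those limits in replicates 2 and 3, so the limits do not cover how reads are assigned. The upper bounds that came with the first quantification were wider, at 0.53, 0.205 and 0.327 TPM. Psma8, the alpha subunit of the testis proteasome, stood at 1.09, 1.35 and 1.66 TPM. Of 4 markers of thymic epithelium, Foxn1, Krt5 and Aire were at 0 in every library and Prss16 stood at 0.11, 0.11 and 0.31 TPM. None reached 1 TPM, and their sum was 0.11 to 0.31 TPM. Of 4 germ cell markers Dmc1 and Acrv1 were at 0, while the helicase Ddx4 had a mean of 2.55 TPM and brought the sum to 1.25 to 3.61 TPM. Psmc3ip stood at 0.64, 2.11 and 2.26 TPM.

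In the base of the regulatory particle the 6 ATPases, which pull substrates into the core, had a median of 115 TPM. Psmc1 was the highest, at 157, 353 and 185 TPM (mean 232 ± 106), and it led in every library. Psmc6 was the lowest, at 83.9, 121 and 69.8 TPM (mean 91.7 ± 26.6). Of the 3 non-ATPase subunits of the base, the scaffold Psmd2 stood at 139.8, 132 and 169 TPM and Psmd1 at 64.5, 47.1 and 65.0 TPM. The libraries lay close for both genes in gene TPM. For Psmd2 this included a transcript annotated for nonsense-mediated decay, Psmd2-208, at 0.88, 31.6 and 0 TPM. Its coding transcript Psmd2-201 stood at 135, 97.5 and 166 TPM.

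The 8 lid subunits carry the deubiquitinating site (Psmd14) and hold the particle together. By gene TPM Psmd8 was the highest, at 342, 198 and 287 TPM (mean 276 ± 72.4), and Psmd6 the lowest, at 75.1, 32.2 and 73.9 TPM (mean 60.4 ± 24.5). For Psmd13, at 78.5, 84.6 and 90.0 TPM, protein-coding transcripts held only 68%, 48.8% and 55.3% of this. The median of the lid subunits was 79.8 TPM. That lay below the median of the alpha ring, 203.5 TPM.

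Assembly chaperones guide subunits into place and then leave. The means of the 4 core chaperones lay below that of every alpha and beta subunit other than Psma8 and Psmb11. Of these chaperones Psmg4 was the highest, at 39.2, 7.5 and 47.4 TPM (mean 31.4 ± 21.1), and Psmg1 the lowest, at 8.14, 8.01 and 11.2 TPM (mean 9.10 ± 1.78). Psmg3 stood at 18.9, 3.99 and 23.8 TPM. All 4 were lowest in replicate 2, though Psmg1 barely so. Of the 3 base chaperones, Psmd10 (also known as gankyrin) stood at 102, 68.4 and 83.9 TPM and Psmd9 at 14.0, 5.36 and 14.6 TPM.

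The libraries differed gene by gene within the set. The summed TPM of the 50 genes was 8693, 5796 and 9207 in replicates 1, 2 and 3. Replicate 2 was the lowest library for 35 of the 49 genes with a count (71.4%), including all 6 catalytic subunits, and the highest for 11. Over detected protein-coding genes it was the lowest for 58.5%, so a low replicate 2 was common among all genes, and the choice of replicate 2 was made after its values were seen. With each library's median deviation removed, replicate 2 differed from the mean of the other libraries by a median of -0.36 on the log2(TPM + 1) scale over the 49 genes and of -0.005 over detected genes. By role, replicate 2 was the lowest for 5 of 7 alpha subunits, 4 of 4 noncatalytic beta subunits, 3 of 6 ATPases, 3 of 3 other base subunits, 4 of 8 lid subunits, 4 of 4 core chaperones and 2 of 3 base chaperones. The core was thus low there more often than the lid or the ATPases in this count of gene TPM, with no test of that difference. For the ATPases and the lid the count depends on which transcripts are included. Psmc1, Psmc3 and Psmc6 were highest in replicate 2 by gene, but their leading coding transcripts were lowest there. Psmc1-201 stood at 147, 127 and 181 TPM, Psmc3-202 at 81.8, 47.5 and 90.2 TPM, and Psmc6-201 at 74.6, 51 and 63.7 TPM. Those of Psmc2, Psmc4 and Psmc5 were lowest there too. By leading coding transcript the core was thus not low more often than the ATPases. In the lid, Psmd12-201 stood at 63.6, 53.5 and 69.3 TPM and Psmd13-201 at 43.8, 3.93 and 41.1 TPM. Both were lowest in replicate 2, which their genes were not. Psmd11 was lowest there by gene, but its leading Psmd11-201, at 34.9, 37.3 and 30.7 TPM, was highest.

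The 5 genes with the largest spread between libraries were Psmb5, Psmg4, Psmg3, Psme2b and Psmb3, with SDs of 1.39, 1.21, 1.08, 1.05 and 0.96 on that scale. In all 5 replicate 2 was the lowest in the first quantification, though Psme2b was highest there in the second. Psmb5 was 6.75-fold lower there than the mean of replicates 1 and 3, Psmg4 5.78-fold, Psmg3 5.35-fold, Psme2b 4.27-fold and Psmb3 3.93-fold. Psmc1 and Psme3 went the other way, at 206% and 187% of that mean.

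The genes low in replicate 2 tended to have short and GC-rich transcripts. Over the 49 genes the difference of replicate 2 from the others had a Spearman rho of -0.51 with the GC content of the leading coding transcript and of 0.55 with its length. Over 10316 detected genes the values were -0.43 and 0.27, so the same lean ran through the library. These correlations are across genes, which share the libraries and are not independent replicates. Psmb5 has a GC content of 56.6% and a length of 899 bases, Psmg4 55.1% and 555 bases, while Psme3, higher in replicate 2, has 49.8% and 2664 bases. For Psmc1 and Psmc6 these properties are those of a coding transcript that was itself lowest in replicate 2 (Psmc6-201 at 74.6, 51 and 63.7 TPM), since their TPM there lay largely on other transcripts. The part of base composition and length in the catalytic pair ratios was not tested.

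**Figure D3:**
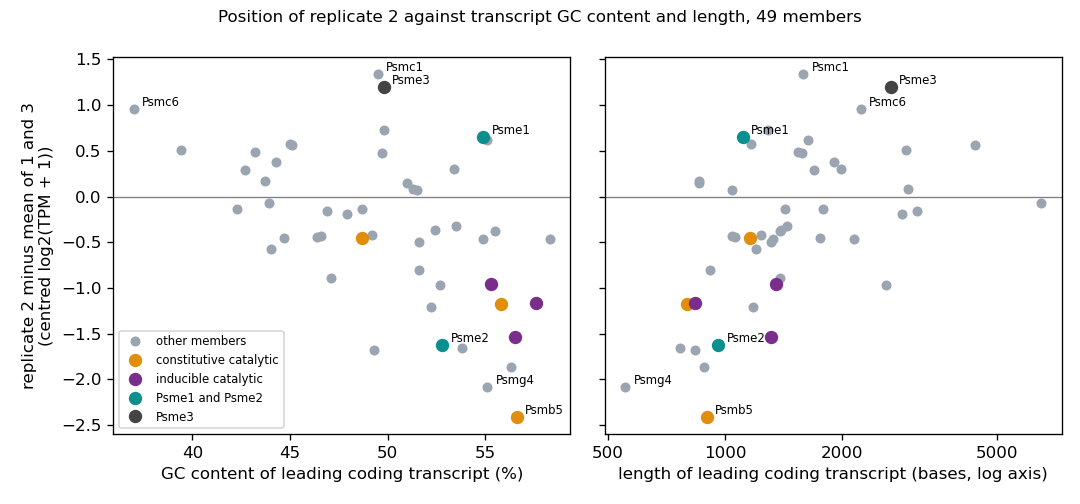
Difference of replicate 2 from the mean of replicates 1 and 3 on the centred log2(TPM + 1) scale (vertical axes) against GC content in percent (left) and length in bases on a log axis (right) of the leading coding transcript, with 1 point per gene for 49 genes and colours for the catalytic and activator genes. Psmb5 and Psmg4 lie lowest at high GC content and short length, and Psmc1, Psme3 and Psmc6 lie highest.

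The differences exceeded counting error for nearly the whole set. A chi-square test of homogeneity across the 3 libraries was adjusted by Benjamini-Hochberg over 11932 genes of all types. It passed 0.05 for 47 of 49 genes, against 89.7% of the 10847 protein-coding genes tested. Psma8 (adjusted p = 0.13) and Psmg1 (adjusted p = 0.0867) did not pass. Between replicates 1 and 3 alone 33 of 49 passed, against 57.1% of protein-coding genes. The shares of the set lay close to these backgrounds. The median SD between libraries was 0.31 for the set and 0.34 for detected genes on the centred log2(TPM + 1) scale, and 0.12 against 0.15 without replicate 2. The order was the other way without centring (0.435 against 0.371) and without replicate 3 (0.378 against 0.355).

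Transcript usage is a readout that the choice of genes did not use. For the 46 genes at a mean of 10 TPM or more, the median share of a gene's TPM on protein-coding transcripts was 98%, 98.1% and 98.2% in replicates 1, 2 and 3, against 96.6%, 97.4% and 97.4% over all genes at that level. The share was under 80% in 4, 8 and 4 genes of the set (8.7%, 17.4% and 8.7%), against 20.4%, 26.8% and 19.3% of all genes. Proteasome genes thus held more of their TPM on coding transcripts than genes at large in each library, with more exceptions in replicate 2.

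Psma3, an alpha subunit, was an exception in every library. Coding transcripts held 14.7%, 52.9% and 21% of its TPM, and a transcript annotated for nonsense-mediated decay (Psma3-201, 875 bases) and a retained-intron transcript (Psma3-203, 1027 bases) held most of the rest. Psma3-201 and the coding Psma3-204, 859 bases, are close in length, and the second quantification gave coding shares of 6.97%, 14.7% and 5.5%. The gene's summed TPM (282, 276 and 323) was nearly level across libraries.

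The coding share was lowest in replicate 2 for 17 of the 46 genes (37%), close to the 35.4% of all genes at that level. In some genes it was low in replicate 2 alone in the first quantification. Psmb4 had 93.6%, 31.2% and 98.4%, with the retained-intron transcript Psmb4-202 at 7.68, 47.0 and 1.68 TPM. Psmc1 had 93.8%, 36.1% and 97.5%, with the noncoding Psmc1-204 (700 bases) at 0, 132 and 0.36 TPM. The coding transcript Psmc1-201 itself stood at 147, 127 and 181 TPM, so the high level of this gene in replicate 2 was on noncoding transcripts. Psmc3 had 95.4%, 46.2% and 95.4%, with the noncoding Psmc3-205 (429 bases) at 94.5 TPM in replicate 2 and 0 in the others. Psmc6 had 89%, 42% and 91.3%, with the decay-annotated Psmc6-208 at 0.49, 60.6 and 0.74 TPM.

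Of the inducible subunits, Psmb8 had coding shares of 75.2%, 86.4% and 74.8%, with the retained-intron Psmb8-205 at 179, 35.4 and 187 TPM. Psmb10 had 65.7%, 50% and 78.4%, and Psmb9 had 86.1%, 86.1% and 86.5%. Within Psmb9 the leading Psmb9-204 stood at 153, 30.9 and 164 TPM. The coding Psmb9-202, of 433 bases, stood at 14.5, 40 and 13.5 TPM. Psmd13, a lid subunit, had coding shares of 68%, 48.8% and 55.3%. Counting only coding transcripts put the share of Psmb10 in its pair at a mean of 54.2% in place of 64.7%.

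**Figure D4:**
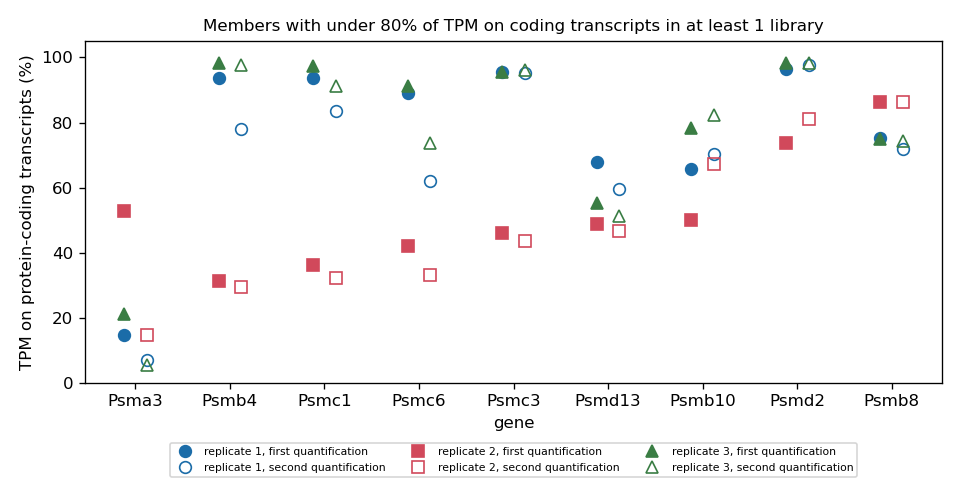
Percent of a gene's TPM on protein-coding transcripts (vertical axis) for the 9 genes under 80% in at least 1 library at a mean of 10 TPM or more, with filled symbols for the first and open symbols for the second quantification of each library. In Psmb4, Psmc1, Psmc6, Psmc3 and Psmd2 the squares of replicate 2 lie below the other libraries in both quantifications, and in Psma3 every point is under 60%.

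The 2 quantifications of the reads differed in level by library. On log2(TPM + 1) the second minus the first had a median over all genes of -0.42 in replicate 1, 0.05 in replicate 2 and -0.09 in replicate 3. Over the set these medians were -0.50, 0.02 and -0.13. By limma none of the 49 genes tested passed an adjusted p of 0.05 with a mean difference of at least 1, against 1.66% of 10203 genes, and 3 had an unadjusted p under 0.05. Psme2b was higher in the second (0.79, adjusted p = 0.00058) and Psma3 lower (-0.73, adjusted p = 0.0022), both short of the difference asked for. Psmb10 differed by -0.39 (adjusted p = 0.62). limma gave every gene the same standard error of 0.18, so the wide spread of Psme2b, whose differences were -0.31, 2.36 and 0.32, is not in its p.

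Genes that work with the proteasome were described from lists of partners, by level only. Of the assembly factors and associated proteins 14 were found, 13 reached 10 TPM in every library and 1 reached 100 TPM. Pomp, the maturation factor of new cores, had a mean of 416 ± 142 TPM, the lid-associated Sem1 94.8 ± 5.41 TPM and the shuttle factor Ubqln2, the lowest, 12.6 ± 3.71 TPM. Of 7 genes in the transcriptional control of proteasome genes all reached 10 TPM and 5 reached 100 TPM. Irf1, an interferon-responsive transcription factor, had a mean of 203 ± 48.4 TPM, and Ddi2, the protease that activates the NRF factor Nfe2l1, was the lowest at 12.0 ± 1.26 TPM.

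Of 7 genes that supply peptides to MHC class I molecules all reached 10 TPM and 5 reached 100 TPM in every library. B2m, the light chain, was the highest at 19517 ± 7386 TPM, followed by the heavy chain H2-K1 at 7798 ± 2111 TPM. Tap2, at 160, 40.9 and 143 TPM, and Erap1, an aminopeptidase that trims peptides, at 52.9, 236 and 57.2 TPM, had the lowest means, nearly tied at 114.7 and 115.2 TPM. In replicates 1 and 3 Erap1 lay below Tap2, and in replicate 2 above it. Tap1, which shares the printed stretch with Psmb9, stood at 342, 100.5 and 344 TPM. Tap1, Tap2, Psmb8 and Psmb9 were thus all lowest in replicate 2. That was common, since 5 of these 7 genes were lowest there. So were 71.4% of the 49 proteasome genes with a count and 58.5% of detected protein-coding genes.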

How the data were processed

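Polyadenylated RNA of 3 libraries of 1 group was quantified against mm10 transcripts of GENCODE M21, per the submitters' processing notes. The sources used here do not give the aligner, its version or strandedness. Per the file headers, the first deposited tables hold expected counts (reads shared among transcripts by a model), TPM and the percent of a gene's TPM on each transcript, and the second deposited tables, made from the reads, hold estimated counts and TPM. Entries that name no gene, 26345 in number, took 0.0875%, 0.0464% and 0.0636% of counts and were left out.

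The second tables were summed to genes. Pairs of genes were compared by the log2 ratio of TPM + 0.1 in each library. Spread and quantification differences used log2(TPM + 1), with limma 3.58.1 on genes at a mean of 1 TPM or more. Counting noise was tested on expected counts rounded to whole numbers, after edgeR 4.0.16 (filterByExpr, TMM), with DESeq2 1.42.0 size factors as an alternative. A count of 0 was given a limit of 3 counts. Tests were checked on simulated data. Python 3.11.15 and R 4.3.3 were used.

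Values are given for the catalytic and activator pairs, the highest and lowest gene of each role, genes under 1 TPM and the 5 most variable. Some genes of the partner and marker lists are not reported here by name. The genes and lists were chosen with earlier results of these data known. Genes shown for transcript usage, and Psmc3ip, Psma8, Psme4, Psmf1, Tap1 and Erap1, were chosen after their values were seen. The alternatives were leaving out each library, the second quantification, coding transcripts only, other pseudocounts, filters and scalings, and 3 chosen after seeing the data: differences centred per library, the leading coding transcript only, and Psme2 summed with Psme2b.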

Additional observations from a re-analysis of the deposited data

How the results depend on the processing

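Of 100 recomputed values 87 kept their direction and their side of the threshold, stayed within the spread or, for counts of genes, within 1.5-fold. A reversal was defined for the pair ratios only, and no mean ratio changed sign. The order of the set and detected genes in spread was not part of this count. It changed without centring and without replicate 3. The log2 ratio of Psmb8 over Psmb5 was no longer separated with coding transcripts only (2.36) or, chosen after seeing the data, the leading coding transcript only (2.34). Leaving out a library put Psmb10 over Psmb7 between 0.71 and 1.26 and Psme2 over Psme3 between 2.89 and 4.35, and both were separated only without replicate 2. With coding transcripts only, Psmb10 over Psmb7 was 0.25 and the inducible share was 54.2% for Psmb10 and 55.5% for all 6 catalytic genes, which was 60.1% in the second quantification. Genes at 100 TPM or more in every library numbered 19 to 29 with a library left out, the 29 being without replicate 2, and 13 in the second quantification and 15 with coding transcripts only. The median of the set exceeded that of all annotated protein-coding genes by 6.48 on the log2 scale. Between the quantifications 0 to 1 genes passed with a library left out, 2 with no minimum on the difference, and 0 of 21951 genes in all passed with no filter on low values. The median SD between libraries was 0.12 to 0.38 with a library left out, the lowest without replicate 2. The causes were not tested. Depth limits Psmb11, Psma8 and Psmc3ip, which had few counts or none. No paired analysis was possible because all 3 libraries belong to 1 group.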
